A study of Mus musculus with 10 samples.

Results

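mt-Atp8 and mt-Atp6 are neighbouring genes of mitochondrial DNA that overlap on a single RNA. These 2 of the 35427 genes in the table were selected on measured values (the reads, TPM and effective lengths estimated for them in these same files), so their own values are given as a description, with no test. RNA had been sequenced after ribosomal depletion from 10 male C57BL/6 mouse embryonic stem cell (ESC) lines grown in 2i medium with LIF, of which 4 were Tdg-/-, 3 were Tdg+/- and 3 were wt (Tdg+/+). Tdg encodes thymine DNA glycosylase, which excises oxidised 5-methylcytosine from DNA. All lines came from matings between Tdg+/- parents, so the wt lines share that parentage. The matings were fewer than the lines, so some lines share parents, and which ones is not given. Each line was derived from an embryo, had been started on feeder cells that were later removed, and gave a single library, so the spread between lines includes clonal differences. The files hold 31095285 to 39916039 reads per line in genes.

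Mitochondrial DNA is transcribed from both strands into long precursor RNAs that carry several genes. Transfer RNAs between the coding parts are cut out and thereby release most messenger RNAs (mRNAs), which then receive a short poly(A) tail. mt-Atp8 and mt-Atp6 are not separated by a tRNA and stay together on a bicistronic mRNA, with mt-Co3, a subunit of cytochrome c oxidase, directly after them. mt-Atp6 encodes subunit a of the ATP synthase, the part of the membrane sector next to which protons pass, and mt-Atp8 encodes a small membrane subunit of the same enzyme. All other ATP synthase subunits are made from nuclear genes.

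The annotated transcripts show the overlap directly. mt-Atp8 (ENSMUST00000082407) is 204 bases long and mt-Atp6 (ENSMUST00000082408) is 681 bases long, and both lie on mitochondrial DNA. They share 43 bases, so that the RNA from the first base of mt-Atp8 to the last of mt-Atp6 is 842 bases long. The sequences are from GENCODE release M21 (build GRCm38), whose transcripts have the same identifiers and lengths as those in the files. The whole of mt-Atp8 and the first 120 bases of mt-Atp6 are shown because the overlap belongs to both genes, and capitals mark the shared bases.

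mt-Atp8: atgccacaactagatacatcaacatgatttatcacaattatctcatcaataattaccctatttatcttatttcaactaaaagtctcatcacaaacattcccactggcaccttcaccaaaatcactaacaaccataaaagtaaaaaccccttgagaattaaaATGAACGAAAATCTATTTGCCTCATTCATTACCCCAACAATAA
mt-Atp6: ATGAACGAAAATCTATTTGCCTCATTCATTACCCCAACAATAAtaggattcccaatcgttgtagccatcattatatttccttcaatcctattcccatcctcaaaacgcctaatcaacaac

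The shared stretch starts with the start codon of mt-Atp6 and ends with the stop codon of mt-Atp8, both in capitals in the next line.

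overlap: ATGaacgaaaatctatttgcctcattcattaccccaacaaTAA

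The start of mt-Atp6 lies 2 bases out of the reading frame of mt-Atp8, so the shared bases are read in different frames for the 2 proteins. Of the bases, 31.9% of mt-Atp8 and 36.0% of mt-Atp6 are G or C. mt-Nd4l and mt-Nd4, which encode subunits of NADH dehydrogenase, are the other mitochondrial pair that overlaps, by 7 bases. mt-Atp6 also overlaps mt-Co3 by 1 base.

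**Figure D1:**
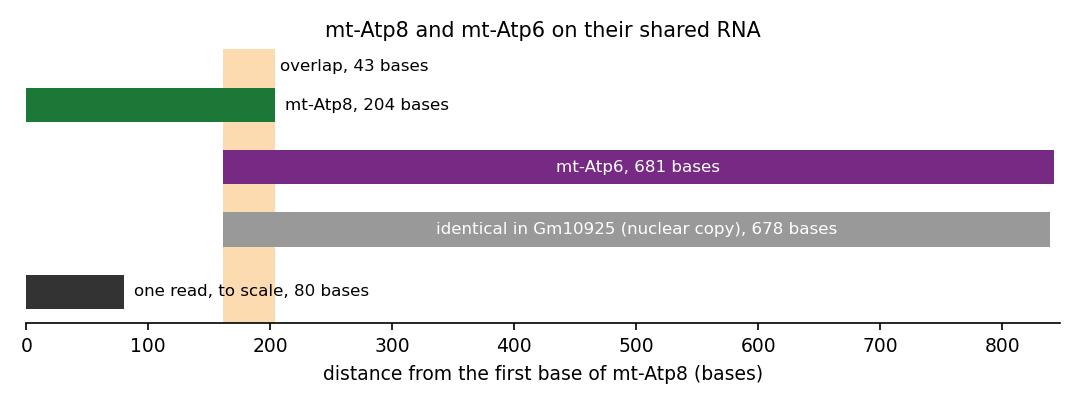
Map of the RNA shared by mt-Atp8 and mt-Atp6, to scale, with distance in bases from the first base of mt-Atp8. The bars show mt-Atp8 (204 bases), mt-Atp6 (681 bases), the 678 bases of mt-Atp6 that are identical in the nuclear copy Gm10925 and the length of a read (80 bases), and the shaded band is the 43-base overlap.

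Reads were 80 bases long. Counting only positions at which such a read lies wholly inside the transcript, which Salmon need not require, mt-Atp8 holds 125 start positions and mt-Atp6 holds 602. Of the 763 positions in the shared RNA, 36 (4.72%) give a read that crosses the overlap and lies wholly in neither annotated transcript. No position lies wholly in both, because the overlap is shorter than a read. Among 141767 annotated transcripts, 0 others contained an 80-base stretch of mt-Atp8. A single other gene, Gm10925, an unprocessed pseudogene on chromosome 1, contained stretches of mt-Atp6.

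Gm10925 is a nuclear copy of mt-Atp6 that is 678 bases long, with 0 mismatches over its whole length. Of the 602 read positions in mt-Atp6, 599 (99.5%) are also in Gm10925, and the 3 that are not lie at its end. Gm10925 had 0, 93, 912 and 76 reads in the Tdg-/- lines, 209, 333 and 225 in the Tdg+/- lines and 0, 1928 and 865 in the wt lines. It was thus listed at 0 in Tdg-/- line 1 and wt line 1, and its reads did not follow genotype. They made up from 0 to 9.45% of mt-Atp6 and Gm10925 reads together. mt-Atp6 had whole read numbers (within 0.0005) only in those same 2 of the 10 lines, and mt-Atp8 in 10 of 10. How the reads of this identical stretch were divided cannot be settled from the files, so values of mt-Atp6 are also given with Gm10925 added. In all, 6 annotated nuclear copies of mitochondrial genes held 0.0622 to 0.108% of reads in the Tdg-/- lines, 0.0391 to 0.0760% in the Tdg+/- lines and 0.0341 to 0.169% in the wt lines, so other mitochondrial mRNAs can be affected likewise.

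mt-Atp8 had fewer reads in every Tdg-/- line than in any other line. It had 1806, 1412, 1768 and 1682 reads in the Tdg-/- lines, 5039, 3670 and 3078 in the Tdg+/- lines, and 3374, 3206 and 3777 in the wt lines. mt-Atp6 had 11695, 11130, 11312 and 12326 reads in the Tdg-/- lines, 30922, 23780 and 21825 in the Tdg+/- lines, and 21168, 18466 and 19268 in the wt lines. The 4 Tdg-/- lines lay below the other 6 lines for both genes, which were selected on these values. In CPM over all genes tested, every Tdg-/- line lay below every wt line for 5.33% and below every Tdg+/- line for 13.1%. The share of genes below all 6 other lines was not counted. The Tdg+/- and wt lines overlapped in reads of mt-Atp8, whereas for mt-Atp6 the Tdg+/- lines had more reads than the wt lines before scaling to library size.

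Scaled to CPM (counts per 1000000 reads of the library, with TMM factors), mt-Atp8 was at 54.5, 38.9, 49.8 and 50.0 CPM in the Tdg-/- lines, 150.8, 95.9 and 74.2 CPM in the Tdg+/- lines, and 103.7, 86.7 and 118.5 CPM in the wt lines. The averages were 48.3 ± 6.61 CPM in Tdg-/- (SD, n = 4), 107.0 ± 39.5 CPM in Tdg+/- (SD, n = 3) and 103.0 ± 15.9 CPM in wt ESCs (SD, n = 3). mt-Atp6 was at 353.1, 307.0, 318.3 and 366.2 CPM in the Tdg-/- lines, 925.5, 621.6 and 526.0 CPM in the Tdg+/- lines, and 650.8, 499.2 and 604.4 CPM in the wt lines. The averages were 336.1 ± 28.1 CPM in Tdg-/- (SD, n = 4), 691.0 ± 208.6 CPM in Tdg+/- (SD, n = 3) and 584.8 ± 77.7 CPM in wt ESCs (SD, n = 3). The order of genotypes was Tdg-/- lowest, then wt, then Tdg+/-, and the wt and Tdg+/- neighbours in that order overlapped for both genes. Tdg+/- line 1 was the highest of the 10 lines for both genes.

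**Figure D2:**
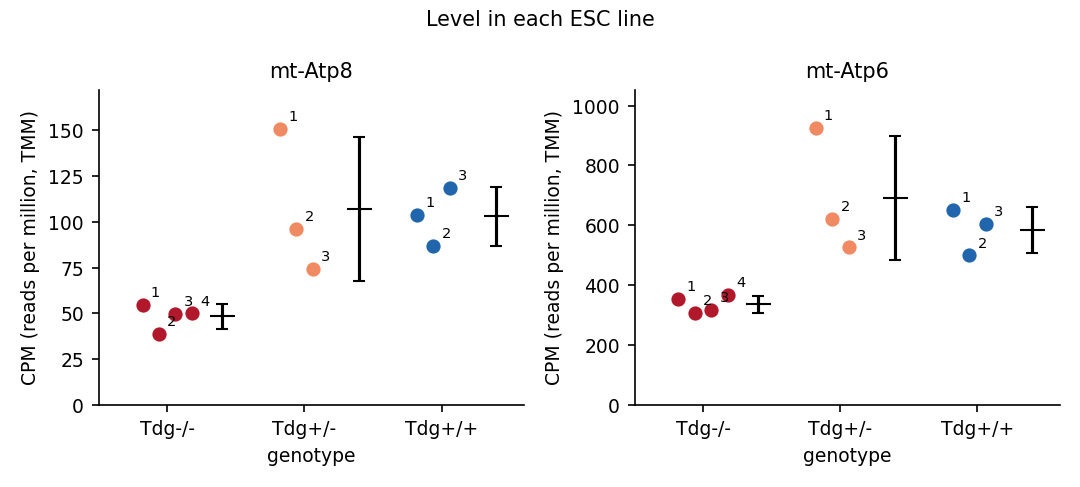
CPM of mt-Atp8 (left) and mt-Atp6 (right) in each ESC line by genotype, where points are lines labelled with their number and black marks are the mean ± SD. The 4 Tdg-/- lines sit between 38.9 and 54.5 CPM for mt-Atp8 and between 307.0 and 366.2 CPM for mt-Atp6, below all other lines.

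In the fit of Tdg-/- against wt ESCs (edgeR, all genes), mt-Atp8 had a log2 fold change of -1.07 ± 0.15 (SE), which is 2.10-fold lower in Tdg-/- ESCs. mt-Atp6 had a log2 fold change of -0.78 ± 0.13 (SE), or 1.71-fold lower, and -0.83 from mean CPM with Gm10925 reads added. Against Tdg+/- ESCs, the log2 fold changes in Tdg-/- ESCs were -1.15 ± 0.22 (SE) for mt-Atp8 and -1.04 ± 0.18 (SE) for mt-Atp6. In Tdg+/- against wt ESCs they were 0.05 ± 0.25 (SE) for mt-Atp8 and 0.23 ± 0.20 (SE) for mt-Atp6. The comparisons share lines (each genotype enters 2 of the 3), so these values are not independent of each other.

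As the members were selected with results of these comparisons known, no call is given for them, and the counts over all genes serve as the background. At an adjusted p under 0.05, 10 of 13926 genes (0.0718%) were called in Tdg-/- against wt ESCs. In Tdg-/- against Tdg+/- ESCs 1261 of 13962 genes (9.03%) were called. In Tdg+/- against wt ESCs 4 of 13880 genes (0.0288%) were called. Every Tdg-/- line lay below every wt line for 742 genes (5.33% of those tested), and every Tdg-/- line below every Tdg+/- line for 1828 genes (13.1%). The counts over all genes moved widely when a single line was left out, from 3 to 3077 in Tdg-/- against wt ESCs (3077 without Tdg-/- line 1) and from 12 to 5659 in Tdg-/- against Tdg+/- ESCs (5659 without Tdg-/- line 1).

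The fold changes of the members are a different measure from such counts, and their movement was not compared with that of other genes. With each line left out in turn, that of mt-Atp8 in Tdg-/- against wt ESCs ran from -1.18 to -0.96 and that of mt-Atp6 from -0.88 to -0.70. With 3 surrogate variables, the correction used by the study, they were -0.63 for mt-Atp8 and -0.56 for mt-Atp6, both of the same sign as without it and smaller in size. In Tdg+/- against wt ESCs the sign of mt-Atp8 depended on the lines used, from -0.27 to 0.25 (-0.27 without Tdg+/- line 1).

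The targeted gene followed the labels. Tdg was at 7.76 to 10.6 CPM in the Tdg-/- lines, 40.4 to 45.9 CPM in the Tdg+/- lines and 86.5 to 93.2 CPM in the wt lines. Summed over 10 ESC markers such as Pou5f1 and Nanog, expression was 7653 to 10530 CPM in the Tdg-/- lines, 7532 to 8024 CPM in the Tdg+/- lines and 7497 to 8111 CPM in the wt lines. The largest part was Dppa5a, which averaged 4344 CPM in Tdg-/-, 3027 CPM in Tdg+/- and 3110 CPM in wt ESCs. Of the 10 ESC markers, 5 had higher and 5 lower values in Tdg-/- ESCs, both against wt and against Tdg+/- ESCs. Summed over 10 fibroblast markers, which feeder cells would express and of which some (Vim, Fn1) are also made by ESCs, expression was 375.7 to 536.2 CPM in the Tdg-/- lines, 610.3 to 884.6 CPM in the Tdg+/- lines and 542.2 to 662.5 CPM in the wt lines. None of these 10 was at 0 in any genotype, and their sum was lower in every Tdg-/- line, as were the members. Most of the sum came from Vim and Fn1, at 111.9 and 389.1 CPM in Tdg-/- line 1. For each of the other markers (Col1a1, Col1a2, Col3a1, Thy1, Postn, Dcn, Lum and Pdgfrb), the Tdg-/- lines overlapped both other genotypes. The part of other cells in the members' levels was not tested. In such bulk libraries, fewer mitochondrial RNAs per cell and fewer cells with many of them cannot be told apart.

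The ratio of the members varied less than their levels. Per 100 mt-Atp6 reads there were 15.4, 12.7, 15.6 and 13.6 mt-Atp8 reads in the Tdg-/- lines, 16.3, 15.4 and 14.1 in the Tdg+/- lines, and 15.9, 17.4 and 19.6 in the wt lines. The Tdg-/- lines lay just below the wt lines and overlapped the Tdg+/- lines. On the log2 scale the ratio differed by -0.30 between Tdg-/- and wt ESCs, or -0.26 with Gm10925 reads added to mt-Atp6, and by -0.09 between Tdg-/- and Tdg+/- ESCs. Between Tdg+/- and wt ESCs it differed by -0.20, so it was lower than in wt ESCs in both other genotypes. Over the 10 lines, log2 CPM of the members had a Pearson r of 0.97, as a description over lines that share genotype.

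How the level of mt-Atp8 compares with that of mt-Atp6 depended on the length it was divided by. Per base of annotated length, mt-Atp8 had 0.42 to 0.52 times the reads of mt-Atp6 in the Tdg-/- lines, 0.47 to 0.54 times in the Tdg+/- lines and 0.53 to 0.65 times in the wt lines. Per position at which an 80-base read lies wholly inside, the ratio was 0.61 to 0.75 in the Tdg-/- lines, 0.68 to 0.78 in the Tdg+/- lines and 0.77 to 0.94 in the wt lines. In TPM, which divides reads by an effective length estimated for each transcript, mt-Atp8 stood above mt-Atp6 in every line, by 3.54 to 4.36 times in Tdg-/-, 3.93 to 4.54 times in Tdg+/- and 4.45 to 5.47 times in wt ESCs. The order of the members was thus turned round by the scale, in all 10 lines.

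**Figure D3:**
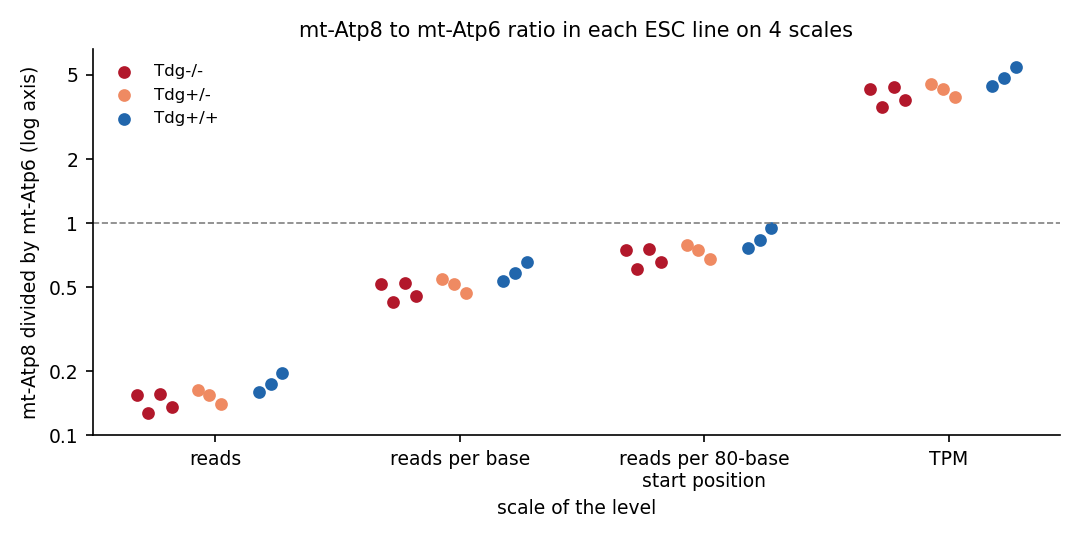
Ratio of mt-Atp8 to mt-Atp6 in each ESC line (points, coloured by genotype) on 4 scales, on a log axis, where the dashed line marks equal levels. The ratio is below 1 in reads, in reads per base and in reads per start position in all 10 lines, and above 1 in TPM in all 10.

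The effective lengths in the files account for that turn arithmetically. mt-Atp8 had an effective length of 9 bases in all 10 lines, 22.7 times shorter than its annotated length. That of mt-Atp6 was 251 bases in all 10 lines, 2.71 times shorter. Of the 748 transcripts within 20 bases of the length of mt-Atp8, 157 had the same 9 bases in all lines, the median was 9 and the highest 154.9. Likewise 2678 transcripts, with annotated lengths from 502 to 1143 bases, had the 251 bases of mt-Atp6 in all lines. By contrast mt-Nd3, a longer mRNA of 348 bases, ranged from 269.8 to 409.7 bases between lines, above its own length in places.

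In TPM, mt-Atp8 had 5121, 2613, 3584 and 3553 TPM in the Tdg-/- lines, 13965, 8590 and 7179 TPM in the Tdg+/- lines, and 9291, 7901 and 10345 TPM in the wt lines. mt-Atp6 had 1189, 739, 822 and 934 TPM in the Tdg-/- lines, 3073, 1996 and 1825 TPM in the Tdg+/- lines, and 2090, 1632 and 1892 TPM in the wt lines. The Tdg-/- lines were again the lowest 4 for both genes. By TPM mt-Atp8 ranked 15th to 64th among all transcripts in the Tdg-/- lines, 2nd to 6th in the Tdg+/- lines and 3rd to 7th in the wt lines. By reads, it ranked 3273rd to 4335th in the Tdg-/- lines, 1078th to 2409th in the Tdg+/- lines and 1442nd to 2016th in the wt lines. The log2 ratio of mean TPM between Tdg-/- and wt ESCs was -1.30 for mt-Atp8 and -1.02 for mt-Atp6, larger in size than the fitted fold changes.

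Scaled to annotated length (CPM of all gene reads per kilobase, mean of the 10 lines), mt-Atp6 ranked 5 of the 13 mitochondrial mRNAs at 769.5 and mt-Atp8 ranked 7 at 409.7. The place of mt-Atp8 depended on genotype, since its mean was below that of mt-Nd1 in Tdg-/- (226.8 against 317.2) and wt ESCs (520.8 against 541.7) and above it in Tdg+/- ESCs (542.5 against 472.4). mt-Co3 ranked 1 at 5497 and mt-Co1, the catalytic subunit of cytochrome c oxidase, ranked 2 at 3249. On the mean TPM of the 10 lines mt-Atp8 ranked 2 instead, at 7214 TPM, below mt-Co3 at 9643 TPM. mt-Nd4l, the first gene of the other overlapping pair, had 0 to 91.0 reads per line and an effective length of 48 bases in all lines, so its ratio to mt-Nd4 was not interpretable line by line.

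The pair was also set against its neighbours on the precursor RNA. Per kilobase, mt-Atp6 amounted to 10.6%, 7.14%, 6.62% and 8.83% of mt-Co3, the gene directly after it, in the Tdg-/- lines. It amounted to 23.5%, 18.3% and 15.5% in the Tdg+/- lines and 24.5%, 12.7% and 16.3% in the wt lines. Every Tdg-/- line lay below every other line in this ratio. On the other side, mt-Atp8 amounted to 17.98%, 14.96%, 16.9% and 21.9% of mt-Co2, the protein-coding gene before it, in the Tdg-/- lines, 35.3%, 24.4% and 21.1% in the Tdg+/- lines, and 46.7%, 15.6% and 22.5% in the wt lines. In this ratio the Tdg-/- lines overlapped both other genotypes. mt-Co3 itself had log2 fold changes of 0.30 ± 0.18 (SE) in Tdg-/- against wt and 0.22 ± 0.15 (SE) in Tdg-/- against Tdg+/- ESCs, neither of which passed the test (edgeR quasi-likelihood test with Benjamini-Hochberg adjustment, adjusted p = 0.386 and 0.308). Reads of Gm28437, a nuclear copy of 783 bases against 784 for mt-Co3, were not added to those of mt-Co3.

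Of the 11 other mitochondrial mRNAs, which did not enter the selection, 0 passed the test in Tdg-/- against wt ESCs (edgeR, adjusted p under 0.05), although 6 had an unadjusted p under 0.05, all lower, and DESeq2 called 2. Of all 13926 genes tested, 945 lower and 1272 higher reached such a p, and DESeq2 called 93. The median log2 fold change of the 11 was -0.60, against -0.01 over all genes tested. mt-Nd2, a subunit of NADH dehydrogenase, had the lowest value, -0.83 ± 0.15 (SE, edgeR adjusted p = 0.231), and every Tdg-/- line lay below every wt line for it. mt-Nd4, mt-Nd5 and mt-Cytb were the other 3 without overlap, with -0.81, -0.60 and -0.67. Over all genes tested, every Tdg-/- line lay below every wt line for 742 (5.33%).

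Set against Tdg+/- ESCs, 3 of the 11 fell in Tdg-/- ESCs and 0 rose, with a median log2 fold change of -0.47 against -0.02 over all genes tested. Of all 13962 genes tested here, 9.03% were called, with 770 lower and 491 higher. Every Tdg-/- line lay below every Tdg+/- line for 4 of the 11, and for 13.1% of all genes tested. mt-Cytb, the cytochrome b subunit of complex III, fell by 0.60 ± 0.15 on the log2 scale (SE, edgeR adjusted p = 0.0436). mt-Co2, a subunit of cytochrome c oxidase, fell by 0.52 ± 0.13 on the log2 scale (SE, edgeR adjusted p = 0.0435). Gm28661, a nuclear copy of 681 bases against 684 for mt-Co2, had 186.1 to 259.6 CPM in Tdg-/- and 56.5 to 221.7 CPM in Tdg+/- lines. Its reads were not added to mt-Co2, and the part of the division of reads in this call was not tested. mt-Nd1, a subunit of NADH dehydrogenase, fell by 0.46 ± 0.13 on the log2 scale (SE, edgeR adjusted p = 0.0492). These calls rested on all lines being present. Leaving out any 1 line other than Tdg-/- line 1 left 0 of them. Without Tdg-/- line 1, 5 of the 11 were called, and 5659 over all genes. In the fit of all 10 lines together 0 of the 11 were called.

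In Tdg+/- against wt ESCs, 0 of the 11 passed the test (edgeR), with 0 reaching an unadjusted p under 0.05 and 0 called by DESeq2. The median log2 fold change was -0.11, against -0.02 over all genes tested.

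**Figure D4:**
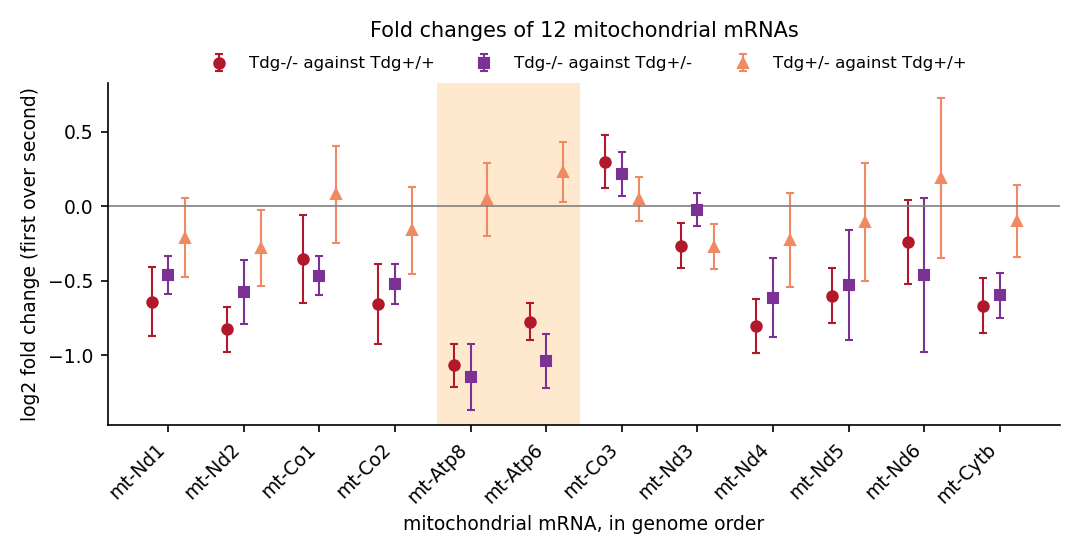
Log2 fold changes (points) with their SE (bars) of 12 mitochondrial mRNAs in the 3 comparisons, in genome order, with mt-Atp8 and mt-Atp6 shaded and mt-Nd4l left out for its low reads. In both comparisons of Tdg-/- ESCs the shaded pair lies at or below -0.78, while mt-Co3 next to it lies above 0.

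wt line 1 was the lowest wt line for most of the other mitochondrial mRNAs, the exceptions being mt-Nd5 and mt-Nd4l, but not for the members. mt-Co1 was at 2496 CPM in this line, against 6509 and 7144 CPM in the other wt lines, whereas mt-Atp8 (103.7 CPM) lay between the other wt lines and mt-Atp6 (650.8 CPM) was the highest of the 3. mt-Nd2 was at 50.3 CPM in wt line 1, close to the 53.4 CPM of wt line 2. The 11 other mRNAs made up 0.82% of reads in wt line 1, against 1.54% and 1.60% in wt lines 2 and 3. In Tdg-/- lines they made up 1.08 ± 0.09% (SD, n = 4), in Tdg+/- lines 1.33 ± 0.13% (SD, n = 3) and in wt lines 1.32 ± 0.44% (SD, n = 3). By an exact two-sided permutation test, the share differed neither between Tdg-/- and wt (p = 0.286, adjusted over the 3 comparisons 0.429) nor between Tdg+/- and wt ESCs (p = 1, adjusted 1, where the smallest p that 3 against 3 allows is 0.1) beyond the threshold. Between Tdg-/- and Tdg+/- ESCs the exact permutation p was 0.0286, the smallest that 4 against 3 allows, and 0.0857 when adjusted.

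Taken as a share of the reads in all 13 mitochondrial mRNAs, mt-Atp8 made up 0.48%, 0.34%, 0.38% and 0.45% in the Tdg-/- lines, 1.01%, 0.69% and 0.60% in the Tdg+/- lines, and 1.21%, 0.56% and 0.72% in the wt lines. The Tdg-/- lines were the lowest 4 on this scale too. mt-Atp6 made up 3.11%, 2.69%, 2.45% and 3.30% in the Tdg-/- lines, 6.17%, 4.49% and 4.28% in the Tdg+/- lines, and 7.57%, 3.22% and 3.67% in the wt lines. Here Tdg-/- line 4 lay above wt line 2, so that for mt-Atp6 the Tdg-/- and wt lines overlapped. The highest share of both genes, in wt line 1, goes with the low level of the other mitochondrial mRNAs in that line.

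**Figure D5:**
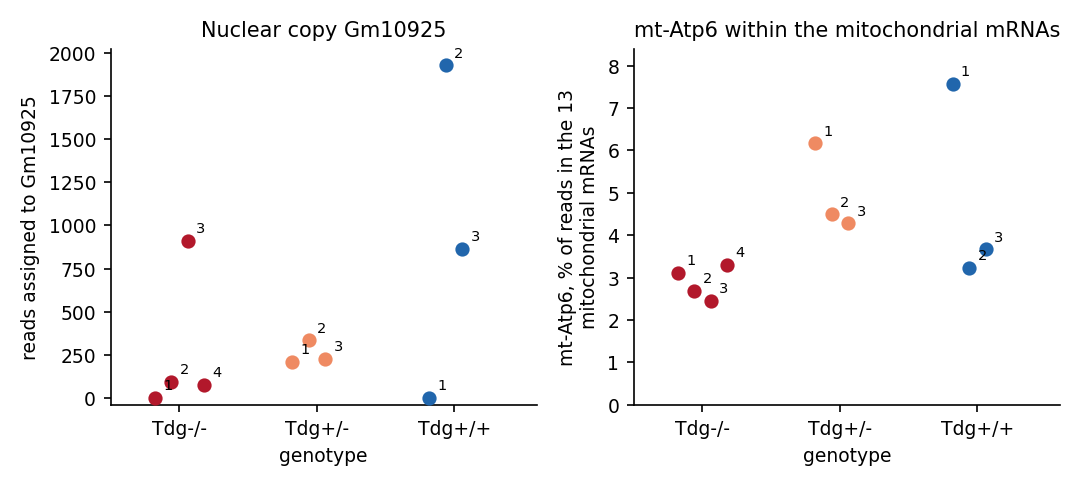
Reads assigned to the nuclear copy Gm10925 (left) and mt-Atp6 as a percentage of the reads in the 13 mitochondrial mRNAs (right), where points are ESC lines labelled with their number. Gm10925 is at 0 reads in Tdg-/- line 1 and wt line 1 and reaches 1928 in wt line 2, and the mt-Atp6 share of the Tdg-/- lines (2.45% to 3.30%) overlaps that of the wt lines (3.22% to 7.57%).

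The nuclear partners of the members in the enzyme had a median on the other side of 0 in Tdg-/- ESCs. Of 23 nuclear genes for ATP synthase subunits and assembly factors, 0 passed the test in any of the 3 comparisons (edgeR). Before adjustment, 8 had a p under 0.05 in Tdg-/- against wt ESCs, all of them higher, DESeq2 called 0, and the median log2 fold change was 0.23, against -0.01 over all genes tested. Of all 13926 genes tested, 1272 higher and 945 lower reached such a p, and DESeq2 called 93. Atp5e, the epsilon subunit, had 0.70 ± 0.22 (SE, edgeR adjusted p = 0.295), and Atp5mpl, a small membrane subunit, had 0.66 ± 0.19 (SE, edgeR adjusted p = 0.295). In Tdg-/- against Tdg+/- ESCs an unadjusted p under 0.05 was reached by 9 with higher and 2 with lower values, while DESeq2 called 9. Of all 13962 genes tested there, 2290 higher and 2624 lower reached such a p, and DESeq2 called 3347. Atp5mpl was at 109.3, 195.9, 180.9 and 177.3 CPM in the Tdg-/- lines, 120.6, 105.0 and 92.1 CPM in the Tdg+/- lines, and 108.1, 104.2 and 107.8 CPM in the wt lines, so Tdg-/- line 1 lay with the other genotypes. Without that line, 13 of the 23 passed the test against wt and 13 against Tdg+/- ESCs, but over all genes 3077 and 5659 did. In Tdg+/- against wt ESCs an unadjusted p under 0.05 was reached by 3 with higher and 1 with a lower value, DESeq2 called 1, and Atp5g1, the c subunit of the proton ring, had the smallest p (0.59 ± 0.13, SE, edgeR adjusted p = 0.107). Of all 13880 genes tested there, 1325 higher and 1029 lower reached such a p, and DESeq2 called 744. The 3 higher genes, Atp5g1, Atp5h and Atpaf2, all lie on chromosome 11, whose tested genes had a median of 0.42 on the log2 scale in this comparison, and the part of the chromosome was not tested.

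Of 23 nuclear genes for mitochondrial transcription and RNA processing, 0 passed the test in Tdg-/- against wt and 0 in Tdg+/- against wt ESCs (edgeR). DESeq2 called 0 and 2 of them, and 93 and 744 over all genes. An unadjusted p under 0.05 (edgeR) was reached by 4 higher and 1 lower in Tdg-/- against wt, and by 3 higher and 1 lower in Tdg+/- against wt ESCs. Of all genes tested, such a p was reached by 1272 higher and 945 lower (13926 tested) and by 1325 higher and 1029 lower (13880 tested). In Tdg-/- against Tdg+/- ESCs, 3 of the 23 were called lower and 0 higher (edgeR). An unadjusted p under 0.05 was reached by 7 with higher and 4 with lower values, and over all genes by 2290 higher and 2624 lower. The median log2 fold change of the 23 was 0.09, against -0.02 over all genes tested. Of all 13962 genes tested there, 9.03% were called, with 770 lower and 491 higher. Elac2, the enzyme that cuts the 3′ end of tRNAs out of precursor RNA, fell by 0.85 ± 0.17 on the log2 scale (SE, edgeR adjusted p = 0.0278). Tbrg4, a mitochondrial RNA-binding protein of the FASTK family, fell by 0.67 ± 0.14 on the log2 scale (SE, edgeR adjusted p = 0.0293). Polrmt, the mitochondrial RNA polymerase, fell by 0.62 ± 0.16 on the log2 scale (SE, edgeR adjusted p = 0.0474). Elac2 was at 37.9, 31.6, 29.7 and 39.2 CPM in the Tdg-/- lines, 46.6, 73.5 and 66.6 CPM in the Tdg+/- lines and 35.0, 36.6 and 32.6 CPM in the wt lines, so it was the Tdg+/- lines that stood apart. For Tbrg4 they stood apart too, with averages of 57.54 CPM in Tdg-/-, 91.29 CPM in Tdg+/- and 58.17 CPM in wt ESCs. Polrmt averaged 13.41 CPM in Tdg-/-, 20.65 CPM in Tdg+/- and 16.94 CPM in wt ESCs. Elac2 and Tbrg4 lie on chromosome 11, whose tested genes had a median of -0.38 on the log2 scale here, against 0.42 in Tdg+/- against wt ESCs, and the part of the chromosome in these values was not tested. The 3 calls remained in number only without Tdg+/- line 1, became 12 without Tdg-/- line 1 and were 0 without any other single line. Over all genes, 5659 were called without Tdg-/- line 1. Tfam, which packages mitochondrial DNA and starts its transcription, had 0.41 ± 0.12 (SE, edgeR adjusted p = 0.0527).

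Among nuclear protein-coding genes that averaged 5 CPM or more, those whose log2 CPM followed mt-Atp8 most closely over the 10 lines were Kif2a, a kinesin (r = 0.96), Snrpf, a core protein of spliceosomal snRNPs (0.94), Tead1, a transcription factor of the Hippo pathway (0.94), Smg1, a kinase of nonsense-mediated decay (0.94), and Dzip1 (0.93). For mt-Atp6 they were Ccdc191 (r = 0.97), Snrpf (0.96), Tead1 (0.95), Ercc5, a nuclease of nucleotide excision repair (0.95), and Dzip1 (0.94). Among mitochondrial mRNAs, mt-Nd2 came next to the other member for both, with r = 0.91 to mt-Atp8 and 0.81 to mt-Atp6. mt-Co3 came last, with r = -0.44 to mt-Atp8 and -0.48 to mt-Atp6. All of these are descriptions over 10 lines that share genotype and library.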

How the data were processed

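Per the study's methods, total RNA of 10 male ESC lines was sequenced as single 80-base reads after ribosomal depletion with a stranded kit. The authors made expected counts (estimated read numbers per transcript) and TPM, which divides reads by an effective length, with Salmon 0.8.1 against GRCm39, and deposited a table per line. The settings for bias correction are not given in the sources used here.

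Deposited expected counts were summed per gene and rounded. Transcripts were paired with genes through GENCODE M21 (GRCm38), for 115153 of 116357 transcripts (98.97%), and unpaired ones held 0.472 to 0.499% of reads per line. The builds differ, so no coordinates are given. A gene entered a comparison if any of its lines reached 20 reads, and was tested with edgeR 4.0.16 (R 4.3.3, quasi-likelihood test, TMM factors, lines of the 2 genotypes only), with Benjamini-Hochberg adjustment over all genes and a threshold of 0.05. Scripts were tested on simulated counts. CPM used TMM factors over the 10 lines. Likeness was Pearson's r of log2(CPM + 0.5). Genes named from the 2 nuclear lists were those with the smallest p, and the 5 most alike genes are named per member, beside all 13 mitochondrial mRNAs and Tdg. Alternatives were RLE factors, no filter, all 10 lines in a single fit, DESeq2 1.42.0, 3 surrogate variables (sva 3.50.0), a replicate block, TPM, another total, and each line left out. The members and lists were chosen with earlier results of these data known. No line was a copy of another, and the p-values measure the spread between lines. Ribosomal and transfer RNAs of mitochondrial DNA were not analysed here.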

Additional observations from a re-analysis of the deposited data

Results flagged for a closer look

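Among 21 measures of the members, the other mitochondrial mRNAs, Tdg and Gm10925 in the 4 Tdg-/- lines, a single value lay far from the rest of its group. Gm10925, the nuclear copy identical to 678 bases of mt-Atp6, was at 25.7 CPM in Tdg-/- line 3, against 0 to 2.56 CPM in the other 3 Tdg-/- lines, a gap of 0.90 of the whole range, above the 95% limit of Dixon's test. Chance flags about 1 in 20 groups. In the same line mt-Atp6 was at 318.3 CPM, within the range of the other Tdg-/- lines, and the division of reads between the 2 genes was not tested.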

How the results depend on the processing

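The log2 fold changes of mt-Atp8 and mt-Atp6 kept their sign under every alternative run in both comparisons of Tdg-/- ESCs, and in Tdg+/- against wt ESCs they crossed 0. In Tdg-/- against wt ESCs they moved by more than the spread between lines with 3 surrogate variables (-0.63 for mt-Atp8, -0.56 for mt-Atp6) and on TPM (-1.30 and -1.02). The ratio of the members moved by less than that spread in all 29 alternatives. With a line left out, mt-Atp8 ran from -1.18 to -0.96, mt-Atp6 from -0.88 to -0.70 (Tdg-/- against wt), -1.35 to -0.81 and -1.20 to -0.77 (against Tdg+/-), and -0.27 to 0.25 and -0.02 to 0.39 (Tdg+/- against wt). Summing mt-Atp6 with Gm10925 and adding nuclear copies to the total were chosen after seeing the data.

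Counts of calls moved widely. In Tdg-/- against wt ESCs (10 genes) they were 19 with no filter, 93 with DESeq2, 24 with 3 surrogate variables, and 3 to 3077 with a line left out. DESeq2 called 2 other mitochondrial mRNAs. Without a line, 0 to 3 of these, 0 to 13 nuclear ATP synthase genes and 0 to 8 RNA processing genes were called. In Tdg+/- against wt ESCs (4 genes) they were 269 with no filter, 23 with all 10 lines, 744 with DESeq2, 3713 with 3 surrogate variables, and 0 to 207 with a line left out. The surrogate variables called 3 other mitochondrial mRNAs, 7 ATP synthase and 6 RNA processing genes, and no filter and DESeq2 each called 1 ATP synthase and 2 RNA processing genes. Without a line, 0 to 1 ATP synthase and 0 to 2 RNA processing genes were called. In Tdg-/- against Tdg+/- ESCs (1261 genes) they were 3347 with DESeq2, 5793 with 3 surrogate variables, and 12 to 5659 with a line left out. Other mitochondrial mRNAs (3) became 0 with all 10 lines, 5 with DESeq2, 7 with surrogate variables and 0 to 5 without a line. ATP synthase genes (0) became 1 with RLE factors, 2 with no filter, 2 with all 10 lines, 9 with DESeq2, 17 with surrogate variables and 0 to 13 without a line. RNA processing genes (3) became 8 with DESeq2, 15 with surrogate variables and 0 to 12 without a line. The cause was not tested. With 3 surrogate variables, 6 lines leave a single residual degree of freedom.

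The share of reads in the 11 other mitochondrial mRNAs between Tdg+/- and wt ESCs, 0.0106 percentage points, changed sign as a sum of TPM (-0.0233) and ran from -0.240 to 0.152 without a line. It was not called in any comparison.

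Whether equal line numbers pair lines was not settled, and the main fits treat lines as unpaired. Deviations of same-numbered lines correlated at 0.163, 0.095 and 0.187 between Tdg-/- and wt lines, and at -0.206 to 0.187 over all comparisons. For differently numbered lines the range was -0.238 to 0.162 between Tdg-/- and wt lines, and -0.253 to 0.27 over all comparisons. With a replicate block, 5 genes were called in Tdg-/- against wt, 33 in Tdg+/- against wt and 6 in Tdg-/- against Tdg+/- ESCs, with 0 other mitochondrial mRNAs and 0 RNA processing genes in the last, and mt-Atp8 had -1.09 in Tdg-/- against wt ESCs under the block. Depth does not limit the members, which had at least 1412 reads in every line.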
